A study of Mus musculus with 33 samples.

Results

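The medulla of the mouse thymus, cut out whole by microdissection, was set against sorted thymocytes titled as medullary, over every probe set of the array. The comparison used 12 of the 33 arrays of the series, 7 titled as whole medulla and 5 titled as sorted medullary thymocytes. It asks which transcripts the medulla holds beyond those of such thymocytes, with stroma and antigen-presenting cells as the named candidates. All mice were male C57BL/6J aged 4 to 6 weeks, and no transgene, mutant allele or treatment is labelled in either group. Whole medulla contains every cell of the dissected region, thymocytes included. The sorted cells were gated as CD3hi and CD45+, so the levels of Cd3e and Ptprc in them follow the gate. The gate rests on surface markers, and the titles do not say that these cells came from dissected medulla. A further pair of the same sex, strain and age served for contrast, 7 arrays of whole cortex and 5 of sorted cortical thymocytes (CD3-/lo, CD45+, and CD90+ or CD117+). Each title numbers its array as a biological replicate without saying which mice or regions it holds, so the p-values measure the spread between these samples, which may in part be technical. Tissue RNA came from RNAqueous Micro columns and sorted-cell RNA from RNeasy Mini columns, so the extraction method and the contrast of tissue with cells cannot be told apart.

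The thymic medulla is where thymocytes that have passed positive selection meet the body's own antigens before they leave. Its epithelial cells express Aire and transcribe genes that belong to other organs, and dendritic cells, macrophages and B cells present these antigens on MHC class II. Thymocytes carrying RANK ligand, CD40 ligand and lymphotoxin in turn sustain the epithelium, and chemokines made by stroma and dendritic cells draw the thymocytes in.

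Values are MAS5 signals on a linear scale, 1 array per sample, and differences are of log2(signal + 26.2), whole medulla minus thymocytes, so that a weak signal has an understated difference. Median signals were 128.1 to 163.3 on the whole medulla arrays and 82.1 to 103.8 on the thymocyte arrays. Correlations of log2 values within a group were 0.936 to 0.984 among whole medulla arrays and 0.962 to 0.985 among thymocyte arrays. On 13 of the 33 arrays the signal exceeded by 0.1% of probe sets was above 42000, and these were 5 of the whole medulla arrays, 3 of the medullary thymocyte arrays, 5 of the whole cortex arrays and 0 of the cortical thymocyte arrays. Calls were also computed among the arrays with this wide upper tail and among those without it. For the male label, Xist, the X-inactivation transcript, was at 2.16 to 29.2 in whole medulla and 2.27 to 24.5 in thymocytes, and Eif2s3y, a Y-linked gene, was at 1910 to 2650 in whole medulla and 2200 to 3390 in thymocytes.

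A gene was called where limma's Benjamini-Hochberg adjusted p was under 0.05 and the log2 difference was at least 1 in size. Of 13463 genes tested, 2622 were higher in whole medulla than in medullary thymocytes (19.5%) and 166 were lower (1.23%). Among the higher genes 671 differed by at least 8-fold and 128 by at least 32-fold, while 0 of the lower genes differed by at least 8-fold. The median difference over all genes was 0.04. Of the 2622 higher genes, 1659 (63.3%) lay below the array median on every thymocyte array, as did 16.5% of all genes tested. Of the 166 lower genes, 15 (9.04%) lay below the array median on every whole medulla array. Among arrays with the wide upper tail, 2532 genes were higher and 210 lower, and 2438 and 143 of these were among the pooled calls. Among arrays without it, 2632 were higher and 172 lower and of these 2417 and 74 were among the pooled calls. The gene lists named below hold 644 distinct genes, of which 538 were tested. A gene passed the filter where its signal was above the array median on at least 3 of the 33 arrays, so a gene read only in tissue could pass through the tissue arrays alone, and counts over such lists describe the tested members only.

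**Figure D1:**
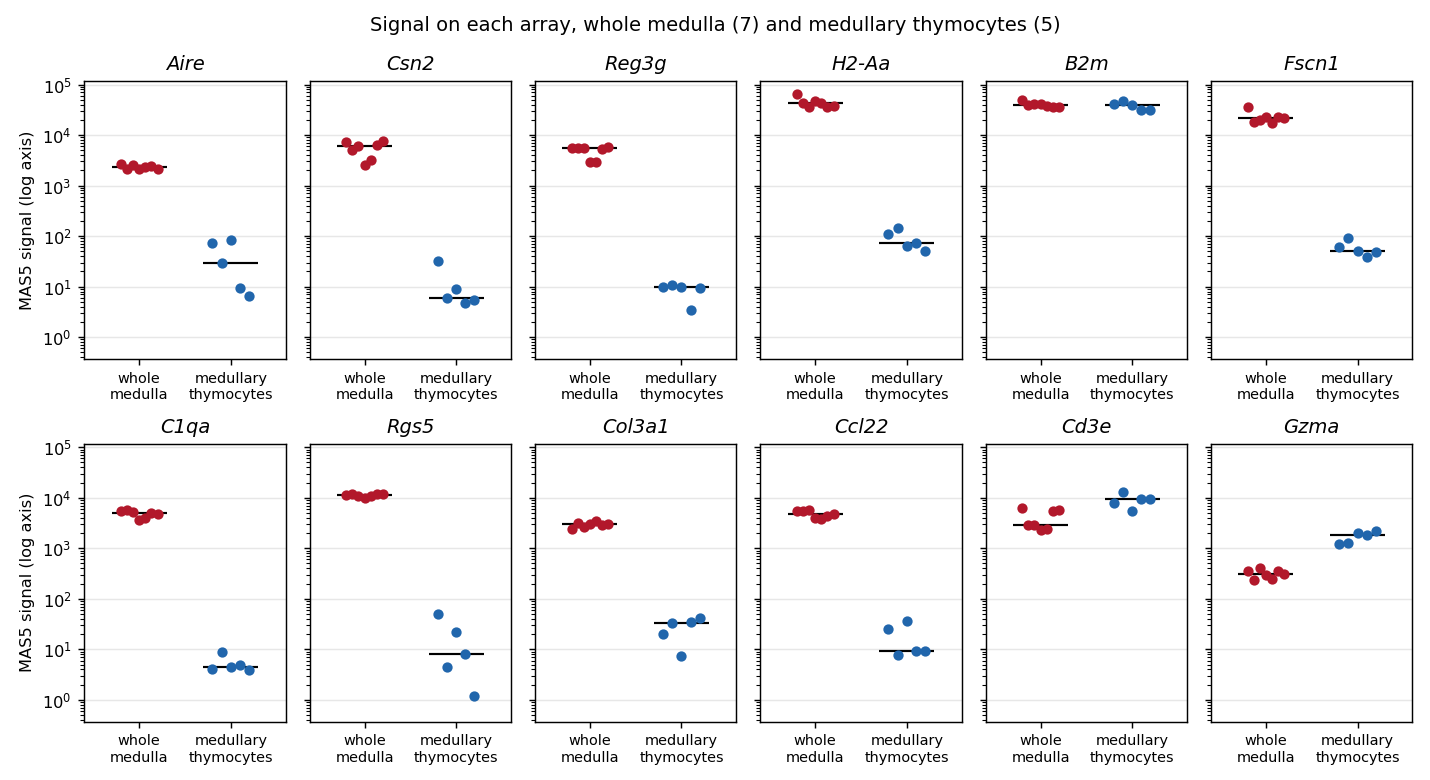
MAS5 signal (log axis) of 12 genes on each of the 7 whole medulla arrays (red, left in each panel) and the 5 medullary thymocyte arrays (blue, right), with the median as a bar. Aire, Csn2, Reg3g, H2-Aa, Fscn1, C1qa, Rgs5, Col3a1 and Ccl22 are separated with a wide gap, B2m overlaps, and Cd3e and Gzma lie lower in whole medulla, Cd3e with an overlap.

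Every tested gene of antigen presentation on MHC class II, 11 of 11, was higher in whole medulla, and 0 of 14 tested genes of MHC class I presentation were called in either direction. The median log2 difference was 3.14 over the class II genes and 0.09 over the class I genes, against 0.04 over all genes. H2-Aa, the class II alpha chain of the I-A molecule, had 35400, 42400 and 65900 as its lowest, median and highest signal in whole medulla, and 109, 146, 63.5, 73.8 and 50.7 on the 5 thymocyte arrays. Its 2 groups were far apart on every array, and the log2 difference of 8.62 ± 0.19 (SE; adjusted p = 2.13e-29) was 1 of the 2 greatest of any gene tested. H2-Eb1, the beta chain of I-E, had signals of 20700 to 28800 in whole medulla with a median of 22600, against 151, 119, 210, 55.6 and 141 in thymocytes. H2-Ab1, the partner of H2-Aa, differed by 6.98 ± 0.16 and H2-Eb1 by 7.26 ± 0.16 on the log2 scale. Cd74, the invariant chain that guides class II molecules to the endosome, had 26700, 28500 and 35700 in whole medulla and 869, 534, 525, 503 and 625 in thymocytes, a log2 difference of 5.61 ± 0.16. The thymocyte signals of Cd74 were well above the array medians, so this gene was also read in the sorted cells. Ciita, the transactivator of the class II genes, was higher by 3.14 on the log2 scale.

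The class I genes were read on the same arrays. H2-K1, a class I heavy chain, had 28600, 38100 and 44700 in whole medulla and 35700, 37800, 27200, 22000 and 22300 in thymocytes, which overlap. B2m, the light chain shared by class I molecules, had 36100, 39800 and 50300 in whole medulla and 40500, 47700, 40000, 31700 and 31000 in thymocytes. The log2 differences were 0.39 ± 0.13 for H2-K1 (adjusted p = 0.0112) and 0.10 ± 0.11 for B2m (adjusted p = 0.492), both under the required size. These signals lay near the top of the scale, where the signal exceeded by 0.1% of probe sets was 33358 to 62137 on whole medulla arrays and 32500 to 69138 on thymocyte arrays, and whether the probe sets were near saturation was not tested. At an unadjusted p under 0.05, limma placed 3 class I genes higher and 3 lower, the lower ones including Erap1, which trims peptides, at -0.52 ± 0.13. With each array centred on the mean of the pan T cell genes instead, 8 of the 14 class I genes were called higher, because that centring moved the median of all genes to 0.996.

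The promoters of both classes are shown because class II genes carry an upstream module of X and Y boxes that class I genes share in part. The windows run from 250 bases before to 50 bases after the RefSeq start of each gene (build GRCm38.p6), written 5′ to 3′ along the gene, and capitals mark the core of the Y box (CCAAT or its reverse complement ATTGG) and of the X2 box (TGACG or its reverse complement CGTCA), which overlap where they form TGACGTCA.
H2-Aa, chr17:34287774-34288073, minus strand: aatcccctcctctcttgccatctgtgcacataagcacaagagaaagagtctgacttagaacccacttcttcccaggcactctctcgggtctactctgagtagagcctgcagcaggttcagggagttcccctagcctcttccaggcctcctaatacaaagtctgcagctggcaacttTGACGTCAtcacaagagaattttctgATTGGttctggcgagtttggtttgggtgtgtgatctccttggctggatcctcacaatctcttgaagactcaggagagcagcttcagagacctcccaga
H2-Eb1, chr17:34305617-34305916, plus strand: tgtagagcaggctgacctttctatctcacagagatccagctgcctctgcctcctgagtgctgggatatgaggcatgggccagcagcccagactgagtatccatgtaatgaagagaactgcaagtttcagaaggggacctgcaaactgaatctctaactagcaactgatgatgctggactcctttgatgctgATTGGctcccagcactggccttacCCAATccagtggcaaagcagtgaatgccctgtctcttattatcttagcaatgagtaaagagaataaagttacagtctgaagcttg
H2-K1, chr17:34000298-34000597, minus strand: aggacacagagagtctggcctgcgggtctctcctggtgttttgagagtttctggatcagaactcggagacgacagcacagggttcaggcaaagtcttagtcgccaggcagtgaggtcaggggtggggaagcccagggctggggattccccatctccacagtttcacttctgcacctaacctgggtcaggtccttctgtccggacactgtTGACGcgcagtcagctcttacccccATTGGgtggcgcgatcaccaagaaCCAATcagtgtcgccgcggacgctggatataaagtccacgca
B2m, chr2:122147437-122147736, plus strand: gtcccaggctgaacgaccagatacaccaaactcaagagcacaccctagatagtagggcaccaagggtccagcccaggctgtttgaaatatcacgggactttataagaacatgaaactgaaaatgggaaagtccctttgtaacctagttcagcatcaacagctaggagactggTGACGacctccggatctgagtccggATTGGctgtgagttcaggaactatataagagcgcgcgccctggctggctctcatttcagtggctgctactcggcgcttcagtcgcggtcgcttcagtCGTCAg
In H2-Aa the ATTGG began 26 bases after the start of TGACG. In H2-K1 and B2m, whose signals overlapped between the groups, it began 25 bases after it. The H2-Eb1 window held 2 Y box cores and 0 of the exact X2 core. H2-DMb2, H2-Oa and H2-Ob, which encode chains of the peptide-editing molecules DM and DO, each held 1 Y box core. The first of the 2 windows listed for H2-DMa, the other chain of DM, held 0 of either core. Of the lysosomal processing enzymes, Ctss held 0 of either core, and Ifi30 held 0 Y box cores and 1 X2 core. Of the 32851 windows in the table, 37.4% held CCAAT on either strand, 20.8% held TGACG and 7.73% held both, so a match is a description of these letters only.

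Medullary epithelial genes were almost all higher in whole medulla, 18 of 19 tested, with a median log2 difference of 4.70. Aire, the regulator of self-antigen expression, had 2090, 2320 and 2640 in whole medulla and 73.3, 28.8, 85.2, 9.47 and 6.64 in thymocytes. Every whole medulla array lay above every thymocyte array, and the log2 difference was 5.32 ± 0.27 (adjusted p = 9.35e-19). Fezf2, another transcription factor that drives tissue antigens in this epithelium, had 2290, 2890 and 3700 in whole medulla and 26.7, 7.81, 51.3, 33.5 and 6.99 in thymocytes. Krt14, a keratin of basal epithelium, differed by 6.33 ± 0.29, Hdc, which makes histamine, by 6.27 ± 0.21, and Krt17, another keratin, by 5.89 ± 0.22 on the log2 scale. Spib, an Ets factor also used by B cells and plasmacytoid dendritic cells, differed by 5.22 ± 0.20. In bulk tissue a greater number of epithelial cells and more RNA per cell cannot be told apart, here and in every result that follows. The genes of epithelial junctions moved alike, 14 of 16 higher with a median of 4.01. Dsp, which anchors keratin to desmosomes, had 6490, 8310 and 11000 in whole medulla and 50, 10.4, 1.56, 0.831 and 28.4 in thymocytes. Dsg2, a desmosomal cadherin, differed by 6.78 ± 0.14, whereas Jup, plakoglobin, differed by 0.90 ± 0.24 with overlapping groups and was not called.

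Genes that belong to other organs stood among the most separated of the comparison. The 5 milk protein genes, the 16 gut and liver genes and the 11 endocrine genes that were tested were all higher in whole medulla, and 28 of these 32 lay below the array median on every thymocyte array. The lists held 8, 21 and 15 genes, and their untested members are not in these counts. Csn2, the milk protein beta-casein, had 2600, 6060 and 7710 in whole medulla and 32.7, 5.9, 8.89, 4.74 and 5.42 in thymocytes, a log2 difference of 7.14 ± 0.28. Wfdc18, a whey acidic protein relative, had 13200, 15400 and 20100 in whole medulla and 59.7, 120, 50.8, 54 and 10.9 in thymocytes. Csn1s2a, another casein, differed by 3.62 ± 0.25 and Csn1s1 by 1.71 ± 0.33. Reg3g, an intestinal antibacterial lectin, had 2890, 5600 and 5820 in whole medulla and 9.84, 10.6, 9.86, 3.48 and 9.51 in thymocytes, a log2 difference of 7.07 ± 0.22 (adjusted p = 4.27e-25). Its relative Reg3b differed by 5.70 ± 0.24 and Apoa4, an intestinal apolipoprotein, by 4.63 ± 0.27. Iapp, the islet peptide amylin, had 1230, 1590 and 1990 in whole medulla and 48.7, 50.6, 32.4, 12.4 and 25.4 in thymocytes. Ins2, insulin, had 142, 179 and 349 in whole medulla and 13, 19.9, 23, 30.3 and 22.9 in thymocytes, without overlap. Nts, neurotensin, differed by 4.39 ± 0.26 and Sst, somatostatin, by 2.03 ± 0.35.

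Striated muscle genes were a weaker group, with 6 of 9 higher and a median log2 difference of 1.13. Ttn, the sarcomere protein titin, had 403, 556 and 603 in whole medulla and 24.9, 43.2, 36.7, 47.6 and 45.5 in thymocytes, and Tnnt2, cardiac troponin T, differed by 2.79 ± 0.29. Acta1, skeletal actin, had 108, 176 and 202 in whole medulla and 141, 160, 133, 133 and 105 in thymocytes, so its groups overlapped (adjusted p = 0.478). The call of Ttn rested on the choice of probe set, since its plain-suffix probe set gave 0.24 (adjusted p = 0.566).

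Markers of late differentiated epithelium were present too. Of 14 genes of cornified epithelium 12 were higher, with a median log2 difference of 1.997. Dsg1a, a desmoglein of upper epidermis, had 745, 947 and 1200 in whole medulla and 10.1, 27.9, 3.24, 3.31 and 7.02 in thymocytes. Krtdap, a keratinocyte differentiation protein, differed by 4.24 ± 0.25, Krt1 by 2.25 ± 0.31, Ivl, the envelope protein involucrin, by 1.97 ± 0.29 and Krt10 by 1.74 ± 0.12. Tuft cells, chemosensory cells of mucosa and medulla, were marked by 6 of 8 genes higher, with a median of 2.27. Dclk1, a kinase of tuft cells, had 284, 415 and 645 in whole medulla and 21.7, 45.5, 3.19, 22.7 and 39.8 in thymocytes. Gng13, a taste G protein subunit, differed by 2.89 ± 0.27 and Trpm5, the channel of taste signalling, by 1.53 ± 0.25.

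Conventional dendritic cell genes were higher in 15 of 17 cases, with a median log2 difference of 3.33. Fscn1, the actin bundler of mature dendritic cells, had 17600, 21700 and 35800 in whole medulla and 60.8, 92.6, 51.8, 37.9 and 48.3 in thymocytes, a log2 difference of 8.06 ± 0.16 (adjusted p = 2.01e-30). Slco5a1, a transporter gene, had 705, 803 and 956 in whole medulla and 7.65, 8.57, 6.12, 7.74 and 48.3 in thymocytes. Itgax, the integrin CD11c, differed by 3.18 ± 0.22, Flt3, a growth factor receptor of dendritic cells, by 3.44 ± 0.22, Zbtb46, a factor of the conventional lineage, by 1.66 ± 0.21, and Irf8, which the cross-presenting subset needs, by 4.15 ± 0.13. Of 10 plasmacytoid dendritic cell genes 2 were higher and 1 was lower, against 19.5% and 1.23% of all genes. The lower one was Ccr9, which is also counted among the chemokine receptors below. Siglech, their surface lectin, had 22.1, 70.2 and 146 in whole medulla and 14.6, 16, 84.6, 19.6 and 5.43 in thymocytes, and with overlapping groups its call (1.05 ± 0.29) was lost among the wide-tail arrays, where the adjusted p was 0.137. Ubd, a ubiquitin-like protein of mature dendritic and epithelial cells, had 10900, 14100 and 20500 in whole medulla and 57.4, 17.2, 6.26, 45 and 55.5 in thymocytes.

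Macrophage genes were higher in 14 of 17 cases, and their summed signal was 32330 to 43230 in whole medulla against 905.7 to 1213 in thymocytes. C1qa, a chain of complement C1q made by macrophages, had 3700, 4890 and 5650 in whole medulla and 4.01, 8.85, 4.54, 4.91 and 3.99 in thymocytes, a log2 difference of 7.25 ± 0.15. Lyz2, the lysozyme of myeloid cells, had 13800, 16800 and 20200 in whole medulla and 55.1, 63.8, 69.3, 101 and 67.4 in thymocytes. Lyz1, its close copy, had the greatest difference of all genes at 8.64 ± 0.19, and because its probe set carries a suffix for cross-hybridising probes the 2 lysozymes cannot be fully separated. Csf1r, the receptor for macrophage colony-stimulating factor, differed by 5.33 ± 0.15, Adgre1, the antigen F4/80, by 2.67 ± 0.14, and Mertk, which takes up dying cells, by 2.07 ± 0.22. Among B cell and plasma cell genes 10 of 14 were higher. Ms4a1, the B cell antigen CD20, had 1110, 1330 and 2000 in whole medulla and 48.4, 94.8, 51.3, 55 and 57.8 in thymocytes, and Cd79a, a chain of the B cell receptor complex, differed by 3.27 ± 0.35. Sdc1, which plasma cells and epithelium share, differed by 4.75 ± 0.23 and Mzb1, of antibody-secreting cells, by 3.39 ± 0.18.

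Granulocyte genes moved in both directions, 7 of 11 higher and 1 lower. S100a8, a calcium-binding protein of neutrophils, had 2020, 3410 and 3970 in whole medulla and 47.9, 6.88, 6.68, 24.7 and 23.8 in thymocytes, and S100a9, its partner, differed by 5.03 ± 0.46. Ltf, the granule protein lactoferrin, differed by 3.38 ± 0.34. Cpa3, the mast cell carboxypeptidase, had 9.43, 28.2 and 45.4 in whole medulla and 161, 163, 365, 302 and 424 in thymocytes, which did not overlap, and was lower by -2.46 ± 0.21 (adjusted p = 1.7e-12). Blood markers were sparse in the lists that could be tested, 2 of 3 higher, with Pf4, of platelets, at 2.32 ± 0.25 and Alas2, of red cell precursors, at 1.75 ± 0.35. The part of blood left in the dissected tissue in these results was not tested.

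Mesenchyme, vessels and matrix made up another large share. Fibroblast genes were higher in 14 of 18 cases (median log2 difference 3.22), smooth muscle and pericyte genes in 11 of 12 (2.89), endothelial genes in 11 of 15 (1.77) and matrix genes in 26 of 29 (2.78). Rgs5, a regulator of G protein signalling in pericytes, had 9810, 11500 and 12100 in whole medulla and 49, 4.42, 22, 8.24 and 1.17 in thymocytes, a log2 difference of 8.14 ± 0.17. Col3a1, a fibrillar collagen, had 2360, 3000 and 3440 in whole medulla and 19.9, 33.8, 7.37, 35.1 and 41.2 in thymocytes. Vcam1, an adhesion molecule of endothelium and stroma, had 3990, 4510 and 5690 in whole medulla and 17.5, 4.4, 22.5, 6.49 and 3.53 in thymocytes. These groups were separated on all 12 arrays. Postn, the matricellular protein periostin, differed by 6.04 ± 0.18, Tnc, tenascin, by 6.27 ± 0.22, Col6a1, a microfibrillar collagen, by 5.71 ± 0.19, and Col4a1, the basement membrane collagen, by 5.06 ± 0.15. Pdgfrb, the growth factor receptor of pericytes, differed by 3.80 ± 0.20 and Pdgfra, that of fibroblasts, by 2.83 ± 0.26. Of the endothelial genes, Vwf, the clotting factor carrier, differed by 3.31 ± 0.26 and Plvap, of fenestrae, by 3.40 ± 0.24. Pecam1, the endothelial junction molecule CD31 that thymocytes also express, had 433, 583 and 728 in whole medulla and 783, 702, 1210, 866 and 876 in thymocytes, a difference of -0.58 ± 0.18 that was not called. Of 6 nerve genes 1 was higher, Ncam1, a neural adhesion molecule, at 2.38 ± 0.29, against 19.5% of all genes. Of 5 adipocyte genes 3 were higher. Fabp4, a fatty acid carrier of adipocytes and of capillary endothelium, had 4420, 6300 and 7600 in whole medulla and 3.81, 5.04, 6.87, 2.6 and 3.08 in thymocytes, whereas Adipoq, an adipocyte hormone, differed by 1.59 ± 0.24.

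**Figure D2:**
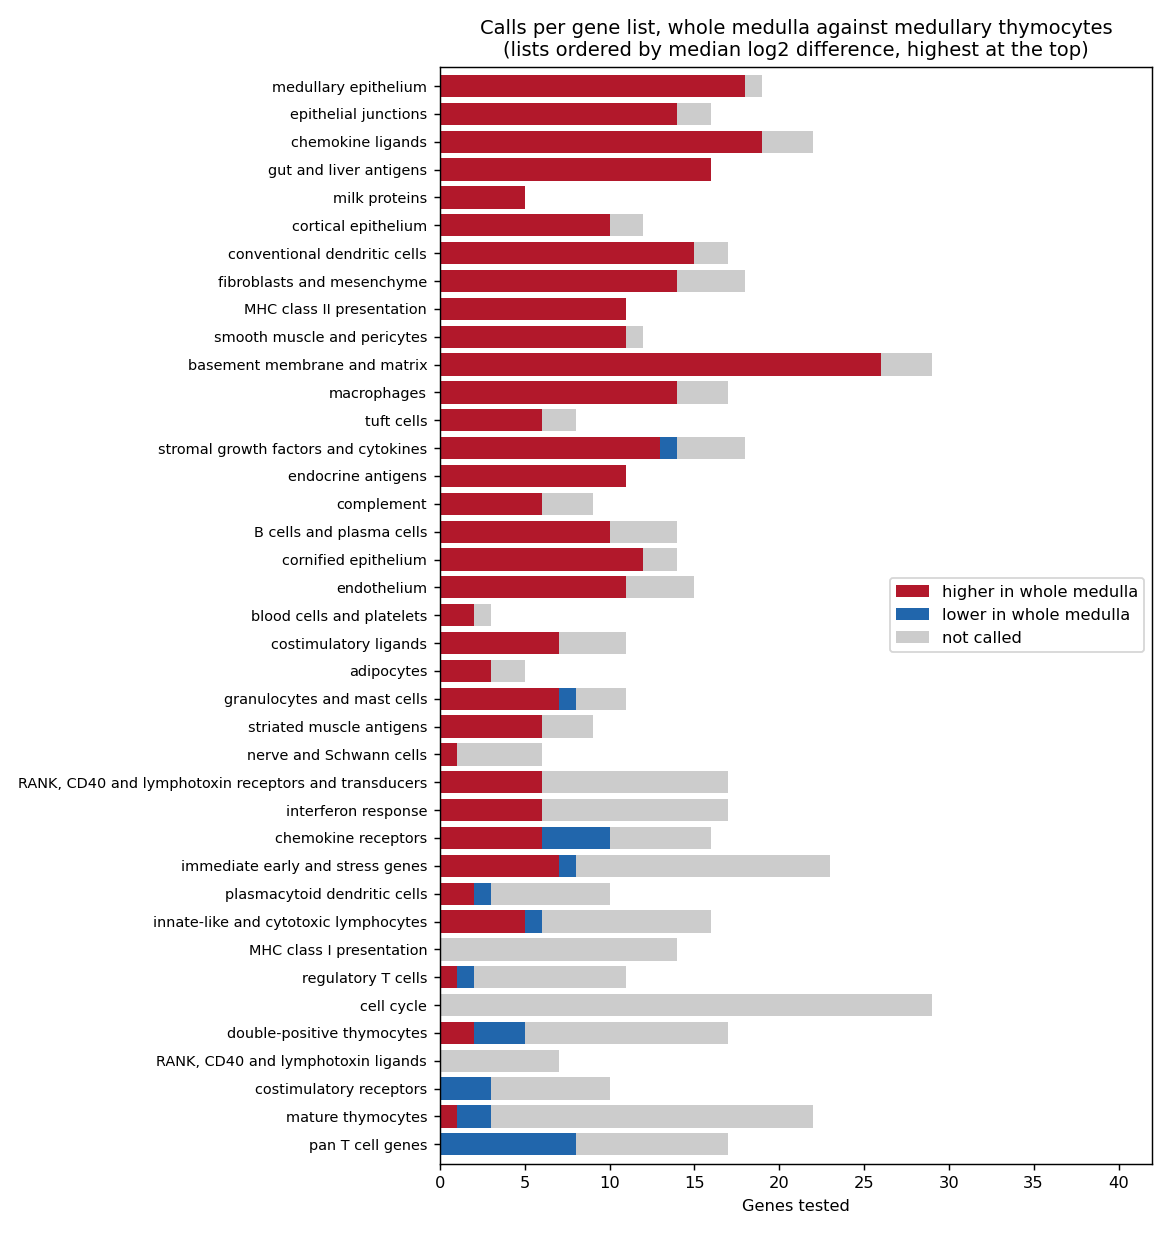
Number of tested genes (horizontal axis) called higher (red), lower (blue) or not called (grey) in whole medulla relative to medullary thymocytes, for 39 gene lists ordered by their median log2 difference. Epithelial, chemokine, antigen and stromal lists fill the upper rows in red, and the pan T cell list at the bottom has 8 of 17 genes lower and 0 higher.

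Chemokine ligands and receptors were counted apart, and the difference between the lists was not tested. Of 22 chemokine ligands 19 were higher in whole medulla (median log2 difference 3.84), and of 16 genes in the chemokine receptor list 6 were higher and 4 lower (median 0.46). Among all genes 19.5% were called higher and 1.23% lower. The receptor list also holds S1pr1, which is not a chemokine receptor. It is 1 of the 4 lower genes and is counted again among the mature thymocyte genes below. Ccl22, a ligand of Ccr4, had 3760, 4860 and 5750 in whole medulla and 25, 7.61, 35.9, 9.11 and 9.18 in thymocytes. Its companion ligand Ccl17 differed by 4.54 ± 0.26, while Ccr4 itself had 38, 84.3 and 138 in whole medulla and 238, 160, 485, 239 and 337 in thymocytes, a difference of -1.49 ± 0.35 (adjusted p = 0.000592). Ligand and receptor thus lay apart in opposite directions in the main fit. With each array centred on the pan T cell genes, Ccr4 gave -0.54 (adjusted p = 0.125) and was not called. Ccr4 was also lower in whole cortex than in cortical thymocytes, by -1.34. Its medullary difference minus its cortical one was -0.15 (adjusted p = 0.863). Ccl25, which calls cells bearing Ccr9, had 2910, 3410 and 3560 in whole medulla and 153, 166, 154, 138 and 142 in thymocytes, though only 1 of its 2 probe sets moved this way, and Ccr9 was lower by -1.26 ± 0.12. With the same centring Ccr9 gave -0.31, under the required size. Ccr7, the receptor that leads thymocytes into the medulla, had 4470, 6440 and 6780 in whole medulla and 9400, 10000, 10300, 7980 and 8810 in thymocytes, and at -0.60 ± 0.16 it was under the required size. Its ligands Ccl19 and Ccl21a were not analysed here. Cxcl9, an interferon-induced chemokine, differed by 6.17 ± 0.31 and Ccl5, a chemokine of T cells and myeloid cells, by 5.07 ± 0.28. Receptors of other leukocytes were higher, Ccr2, of monocytes, by 2.33 ± 0.21 and Ccr6, of B cells and dendritic cells, by 1.82 ± 0.18.

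Costimulatory ligands and receptors were treated in the same way. Of 11 costimulatory ligands, Cd40 counted among them, 7 were higher and 0 lower, and of the 10 receptors borne by T cells 0 were higher and 3 lower. Among all genes 19.5% were higher and 1.23% lower. Cd86, which binds Cd28, had 853, 1030 and 1340 in whole medulla and 201, 243, 162, 118 and 142 in thymocytes, and Cd80, its partner, differed by 2.08 ± 0.32. Cd28 had 5620, 6100 and 9790 in whole medulla and 13900, 20600, 13500, 12000 and 13100 in thymocytes, a difference of -1.13 ± 0.11. Cd70 differed by 3.02 ± 0.28 and its receptor Cd27 by -1.54 ± 0.18, and Icosl by 3.48 ± 0.35 and its receptor Icos by -0.40 ± 0.09. Cd226, an adhesion receptor of T and NK cells, was lower by -1.11 ± 0.22. All 3 receptor calls were lost among arrays without the wide upper tail, where Cd28 gave -0.97, Cd27 -0.82 and Cd226 -0.97. They were also lost with each array centred on the pan T cell genes, a list that includes Cd28. There Cd28 gave -0.18, Cd27 -0.58 and Cd226 -0.15.

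In the RANK, CD40 and lymphotoxin system ligands and receptors were counted apart, against 19.5% of all genes called higher, and the difference between the lists was not tested. Of 7 ligand genes limma called 0 in either direction, and at an unadjusted p under 0.05 it placed 0 higher and 1 lower. Tnfsf11, RANK ligand, had 399, 508 and 752 in whole medulla and 680, 727, 820, 1000 and 1200 in thymocytes, which overlap (-0.60 ± 0.23, adjusted p = 0.0257). Cd40lg had 13, 49.7 and 65.1 in whole medulla and 19.8, 127, 39.2, 58.1 and 168 in thymocytes. Of 17 receptors and transducers 6 were higher. Tnfrsf11a, the receptor RANK, had 326, 374 and 533 in whole medulla and 46.9, 63, 84.4, 32 and 34.6 in thymocytes, a difference of 2.49 ± 0.25. Tnfrsf11b, the decoy receptor osteoprotegerin, had 100, 420 and 927 in whole medulla and 11, 15.2, 19.4, 8.34 and 18.1 in thymocytes, a spread wide in whole medulla and yet without overlap. Cd40 differed by 5.03 ± 0.21, Ltbr, the lymphotoxin receptor, by 1.34 ± 0.24 and Relb, the NF-kappaB subunit downstream of them, by 1.82 ± 0.16.

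**Figure D3:**
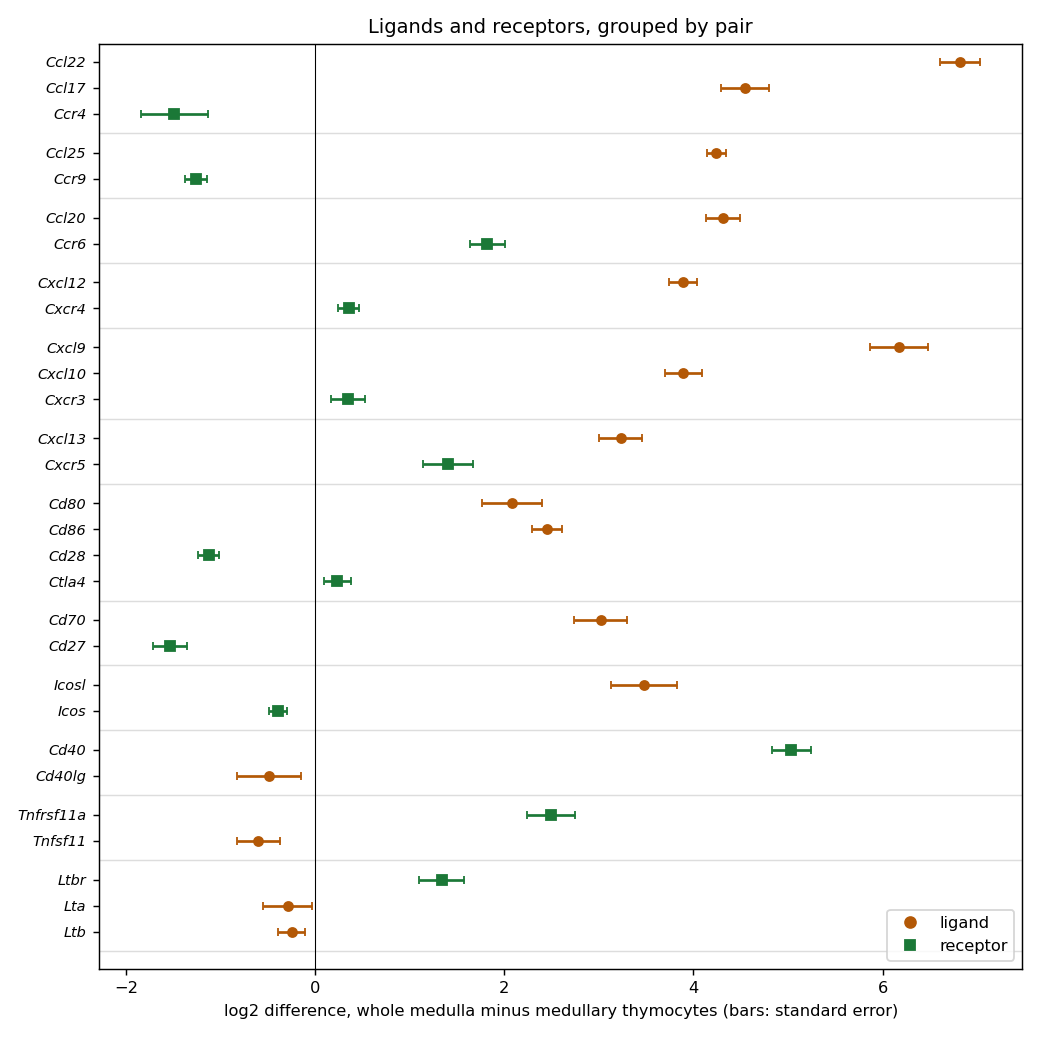
Log2 difference, whole medulla minus medullary thymocytes, with its standard error, for ligands (circles) and receptors (squares) grouped by pair. Chemokine and costimulatory ligands lie right of 0. Of their receptors, Ccr4, Ccr9, Cd28 and Cd27 lie left of 0 and Ccr6 lies right of it. For CD40, RANK and the lymphotoxin receptor the receptor lies on the right and the ligand at or left of 0.

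Growth factors and cytokines of stroma were higher in 13 of 18 cases and lower in 1, with a median log2 difference of 2.23. Il7, the survival factor of thymocytes, had 1280, 1780 and 2050 in whole medulla and 1.64, 34.5, 13.7, 11.9 and 36 in thymocytes. Il15, which supports innate-like lymphocytes, differed by 3.96 ± 0.21, Igf1, an insulin-like growth factor, by 4.16 ± 0.25 and Pdgfa, a mesenchymal growth factor, by 4.04 ± 0.21. Of 9 complement genes 6 were higher, with C1s1, a protease of the classical pathway, at 4.78 ± 0.21, C1ra, its partner, at 3.64 ± 0.29 and Cfb, of the alternative pathway, at 3.43 ± 0.28.

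Pan T cell genes were lower in whole medulla, 8 of 17 called and 0 higher, against 1.23% of all genes lower. All 17 differences were below 0, from -1.34 to -0.38 with a median of -0.96, and all had an unadjusted p under 0.05. Their summed signal was 98410 to 116900 in whole medulla against 172200 to 213600 in medullary thymocytes. Cd6, a scavenger receptor of T cells, had 1970, 2590 and 3800 in whole medulla and 8490, 6720, 4660, 7350 and 7360 in thymocytes, without overlap, a difference of -1.34 ± 0.15 (adjusted p = 2.45e-09). Cd3e, part of the gate, had 2310, 2930 and 6180 in whole medulla and 7810, 13100, 5520, 9630 and 9300 in thymocytes. The other CD3 chains in the list lay under the required size, Cd3g at -0.75 ± 0.14 and Cd3d at -0.62 ± 0.14, as did Thy1, the thymocyte antigen CD90, at -0.89 ± 0.11. Ptprc, the leukocyte antigen CD45, had 25200, 31900 and 44800 in whole medulla and 40300, 47700, 37900, 30500 and 33100 in thymocytes, with overlap. The list had 8 lower genes among wide-tail arrays and 5 among arrays without the tail. Where arrays were centred on this list, 0 of its genes were called by construction, and the medians of the lists of mature thymocytes, double-positive thymocytes, costimulatory receptors and cell cycle turned positive, at 0.405, 0.62, 0.45 and 0.74.

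Of 22 genes of mature thymocytes 1 was higher and 2 were lower, against 19.5% and 1.23% of all genes. In this list 21 of 22 differences were below 0, with a median of -0.55. S1pr1, the receptor by which mature thymocytes leave, had 802, 979 and 1310 in whole medulla and 1640, 2100, 2020, 2260 and 2420 in thymocytes, a difference of -1.02 ± 0.17 that sat at the required size and fell to -0.93 among arrays without the wide upper tail. Emb, an adhesion protein, was lower by -1.09 ± 0.08. With each array centred on the pan T cell genes, S1pr1 gave -0.07 (adjusted p = 0.691) and Emb -0.14 (adjusted p = 0.208), and neither was called. Klf2, the factor that drives S1pr1, had 3160, 4010 and 5240 in whole medulla and 7780, 8810, 4830, 7600 and 8060 in thymocytes (-0.84 ± 0.14). Dapl1 went the other way, with 1590, 1970 and 2400 in whole medulla and 550, 859, 847, 666 and 988 in thymocytes, a difference of 1.31 ± 0.24.

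Of 17 genes typical of CD4+CD8+ double-positive thymocytes, 2 were higher and 3 lower, against 19.5% and 1.23% of all genes. Rag1, a recombinase subunit, had 412, 1000 and 1320 in whole medulla and 127, 1600, 1100, 855 and 919 in thymocytes, against medians of 45700 in whole cortex and 26500 in cortical thymocytes, so both medullary groups were low and overlapped. Rag2, its partner, had 18.7 to 80 in whole medulla and 4.11 to 136 in thymocytes. The lower genes included the coreceptors, Cd8b1 at 3490, 3880 and 4770 in whole medulla and 9940, 13100, 11900, 9740 and 11200 in thymocytes (-1.46 ± 0.13), and Cd4 at -1.19 ± 0.23, which among arrays without the wide tail was -0.39 (adjusted p = 0.224). With centring on the pan T cell genes Cd8b1 gave -0.51 and Cd4 -0.24, and neither was called. Cd4 was also lower in whole cortex than in cortical thymocytes, by -1.28. The higher genes were Ly6d, a surface protein also found on B cell precursors and epithelium, with 1750, 2180 and 2560 in whole medulla and 150, 272, 340, 143 and 236 in thymocytes, and Slc7a11, a cystine transporter, at 2.62 ± 0.24.

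Of 11 regulatory T cell genes 1 was higher and 1 lower, against 19.5% and 1.23% of all genes. Foxp3, their lineage factor, had 185, 217 and 327 in whole medulla and 236, 293, 193, 183 and 223 in thymocytes (0.01 ± 0.19). Il2ra, the receptor CD25, differed by 1.07 ± 0.19 and Izumo1r, a folate receptor family member of T cells, by -1.03 ± 0.20, and each sat at the required size. Of 16 innate-like and cytotoxic genes 5 were higher and 1 lower, against 19.5% and 1.23% of all genes, with a median difference of 0.12. Gzma, granzyme A, had 235, 312 and 400 in whole medulla and 1190, 1250, 2010, 1860 and 2150 in thymocytes, without overlap, a difference of -2.31 ± 0.14 (adjusted p = 3.97e-16). Tyrobp, a signalling adaptor of NK and myeloid cells, differed by 5.28 ± 0.20, and Klrd1, an NK receptor chain, by -0.24 ± 0.16, which was not called.

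Of 29 cell cycle genes limma called 0, and at an unadjusted p under 0.05 it placed 4 higher and 13 lower, with a median of -0.21. Mki67, a marker of cycling cells, had 4670, 4890 and 5880 in whole medulla and 5440, 4470, 3270, 3600 and 2930 in thymocytes, and Top2a, a topoisomerase of dividing cells, had 4120, 4660 and 5220 in whole medulla and 6570, 5600, 4460, 3590 and 3710 in thymocytes. Of 17 interferon response genes 6 were higher, against 19.5% of all genes. Oasl2, an antiviral gene, had 2780, 3270 and 4020 in whole medulla and 1340, 1260, 851, 1320 and 1240 in thymocytes, while Ifit1, another, had 3540, 3970 and 4930 in whole medulla and 3870, 3880, 2720, 2890 and 2950 in thymocytes (0.34 ± 0.14, not called). Of 23 immediate early and stress genes 7 were higher and 1 lower, against 19.5% and 1.23% of all genes. Hspa1b, an inducible heat shock protein, had 1710, 2420 and 3740 in whole medulla and 14.7, 6.6, 68.3, 13.5 and 44.7 in thymocytes, a difference of 5.57 ± 0.23, and Hspa1a, its close copy, differed by 3.31 ± 0.30. Jun, an AP-1 subunit, differed by 2.58 ± 0.17, whereas Fos, its partner, had 468, 544 and 639 in whole medulla and 537, 586, 347, 512 and 393 in thymocytes and was not called. Tissue dissection and cell sorting also differ in handling, and the part of handling in these values cannot be told apart.

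The greatest lower differences of all were modest beside the higher ones. Nrp had 7.46, 110 and 287 in whole medulla and 1050, 543, 831, 725 and 526 in thymocytes, a difference of -2.56 ± 0.42. H3f3b, a replacement histone, had 4.66, 66.4 and 143 in whole medulla and 455, 829, 332, 331 and 229 in thymocytes (-2.46 ± 0.34). Both were lower in whole cortex than in cortical thymocytes too, by -1.40 and -2.33. Meak7 (-1.91 ± 0.36), H2-T24, a nonclassical class I gene (-1.77 ± 0.34), Wdr46 (-1.73 ± 0.31) and Als2cl (-1.66 ± 0.22) completed the 8 greatest with Cpa3 and Gzma. Meak7, H2-T24, Wdr46 and Als2cl were also lower in whole cortex than in cortical thymocytes, by -1.72, -1.13, -1.32 and -1.19. No difference between medulla and cortex was called for them. With centring on the pan T cell genes they gave -0.95, -0.82, -0.77 and -0.71, under the required size. Among arrays without the wide upper tail Meak7 gave -0.75 and Wdr46 -0.61, also under it.

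The excess of medullary tissue over medullary thymocytes was then set against that of cortical tissue over cortical thymocytes. Whole cortex had 1298 genes higher than cortical thymocytes (9.64%) and 205 lower (1.52%). The difference between the 2 tissue excesses, an interaction term in the same limma fit, was positive for 1723 genes (12.8%) and negative for 299 (2.22%). Among the 2622 genes with a positive call in medulla, 1030 had one in cortex too, 1570 had an excess that was greater in medulla and 44 an excess that was smaller. Since the 7 cortical tissue arrays included 5 with the wide upper tail and the cortical thymocyte arrays 0, tail and sample kind go together there, and the 205 lower genes of the cortex became 44 among arrays without the tail.

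The genes with the greatest positive interaction had low signals in cortex. Reg3g had a median of 10.2 in whole cortex and 13.2 in cortical thymocytes, and its excess was greater in medulla by 7.32 ± 0.31 on the log2 scale (adjusted p = 1.55e-19). Wfdc18 (6.73 ± 0.41), Csn2 (6.41 ± 0.40), Ptgs2, the inducible cyclooxygenase (6.20 ± 0.31), Serpinb1a, a protease inhibitor (6.01 ± 0.27), and Cdhr1, a cadherin of photoreceptors (5.94 ± 0.36), followed. Ptgs2 had 1280, 2090 and 2770 in whole medulla and 1.95, 11.6, 2.09, 1.73 and 1.48 in thymocytes, against medians of 3.73 in whole cortex and 12 in cortical thymocytes. Aire gave 4.92 ± 0.38, Fscn1 5.19 ± 0.23, Rgs5 4.64 ± 0.24 and H2-Aa 2.30 ± 0.27. All 32 tested milk, gut, liver and endocrine genes were uncalled in the cortical comparison, and 29 of them had a greater excess in medulla. Since 28 of the 32 lay below the array median on every medullary thymocyte array, they could pass the filter through whole medulla arrays alone. These counts therefore describe the tested members only and are in part set by the filter.

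The negative side held the known products of cortical epithelium. Prss16, a thymus-specific serine protease, had medians of 13500 in whole cortex and 44.2 in cortical thymocytes, and 591, 1000 and 1100 in whole medulla and 191, 152, 263, 140 and 160 in medullary thymocytes, an interaction of -5.45 ± 0.19 (adjusted p = 1.57e-21). Psmb11, the thymoproteasome subunit, had 88.3, 124 and 151 in whole medulla and 7.93, 4.53, 21.4, 49.7 and 4.88 in medullary thymocytes, against a median of 2760 in whole cortex. Both were thus present in whole medulla at levels below those of whole cortex, and the part of cortical tissue in the dissections was not tested. Inmt, a methyltransferase (-3.82 ± 0.26), Cxcl12, a chemokine of cortical stroma (-3.61 ± 0.21), Plekhb1 (-3.55 ± 0.30) and Ccl25 (-3.07 ± 0.14) made up the rest of the 6. Of 12 cortical epithelial genes 10 were higher in whole medulla than in medullary thymocytes, and 9 had a smaller excess in medulla than in cortex. The 2 with a greater excess in medulla were Il7, at a mean signal of 1720 in whole medulla and 733 in whole cortex (1.39 ± 0.25, adjusted p = 4.06e-05), and Ctsl, a lysosomal protease (1.39 ± 0.18), whose mean signal was lower in whole medulla (11873) than in whole cortex (34642). Ctsl was named after its values were seen, and its interaction was -0.64 with its plain-suffix probe set and 0.38 (adjusted p = 0.159) with the mean of its probe sets. Tbata, a thymic stromal protein, had 3100, 4140 and 6430 in whole medulla and 2.26, 30.1, 19.9, 17 and 16.1 in medullary thymocytes, and a median of 21300 in whole cortex.

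Other stromal genes differed less between the medullary and cortical excess. Vcam1 gave an interaction of -0.04 ± 0.16 (adjusted p = 0.893), Csf1r 0.83 ± 0.21 and Col3a1 0.85 ± 0.26, the last 2 past the adjusted p (0.00246 and 0.0109) but under the required size. Both reached that size under quantile normalization (1.15 for Csf1r and 1.11 for Col3a1) and with centring on the pan T cell list (1.55 and 1.57), Csf1r also with the mean of its probe sets (1.14) and Col3a1 also among arrays without the wide upper tail (1.04). Of 17 macrophage genes, 3 had a greater excess in medulla and 5 a smaller one. The 2 genes called in opposite directions were Arc, an immediate early gene, and Fam167a. Fam167a had 218, 340 and 607 in whole medulla and 13.4, 23.1, 27.4, 75.2 and 54.8 in medullary thymocytes, with medians of 92.9 in whole cortex and 144 in cortical thymocytes, an interaction of 3.63 ± 0.43. Arc had 39.1, 179 and 235 in whole medulla and 95.4, 17, 87.7, 41.3 and 61.8 in medullary thymocytes, which overlap, and its medullary call was lost among the wide-tail arrays (0.80, adjusted p = 0.228). Gzma (-2.89 ± 0.20) and Cpa3 (-2.73 ± 0.30) had a negative interaction, with Gzma at medians of 6380 in whole cortex and 4310 in cortical thymocytes and Cpa3 at 445 and 359.

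**Figure D4:**
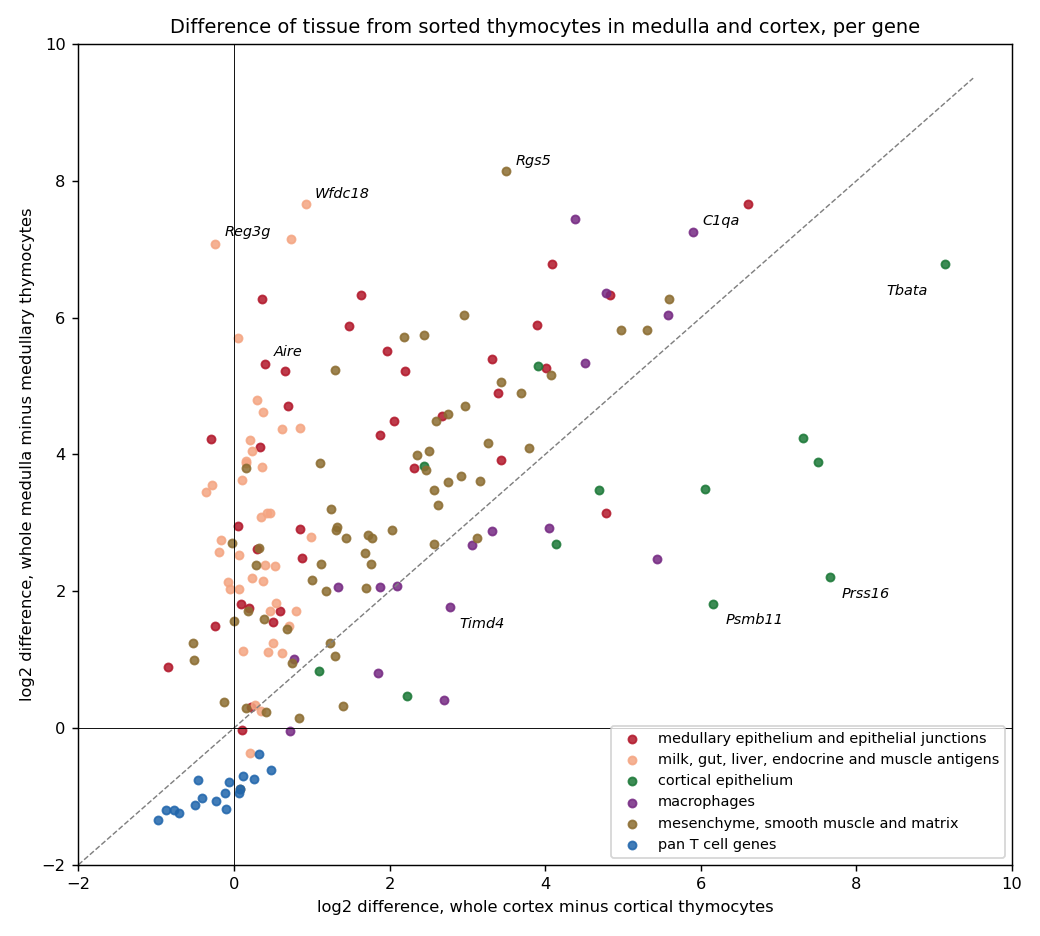
Log2 difference of tissue from sorted thymocytes in medulla (vertical axis) against cortex (horizontal axis), 1 point per listed gene, coloured by gene group, with the line of equal differences dashed. Antigens of other organs lie near 0 on the cortical axis and up to 7.65 on the medullary one, cortical epithelial genes such as Prss16 and Psmb11 lie far right of the dashed line, and the pan T cell genes lie below 0 on the medullary axis.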

How the data were processed

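The deposited values were MAS5 intensity signals on a linear scale, 1 column per array, made by the authors with Affymetrix Expression Console 1.0 and MAS5, per the submitters' processing notes. The scaling target is not given in the sources used here. Per the labels' protocols, oligo-dT primed, biotin-labelled cRNA was hybridised. Of 45037 probe sets, 34945 carried 1 gene symbol in the platform annotation, 932 several and 9160 none. Kept probe sets were above the array median on at least 3 arrays, each gene was read by its brightest probe set, and 13463 genes were tested. log2(signal + 26.2) was fitted with limma 3.58.1 (R 4.3.3) over all 33 arrays and 7 group means (26 residual degrees of freedom, eBayes with a trend, Benjamini-Hochberg adjustment over all genes). Samples were grouped by their titles. Named genes were the greatest differences, the first or most changed members of each list, and label checks, plus Ciita and the class II genes whose promoters were searched. The members and lists were chosen with earlier results of these data known. The model was tested on simulated data. Whole medulla and medullary thymocyte arrays of the same replicate number did not deviate together (r of -0.04 to 0.09), so they were not paired. Whole medulla and whole cortex arrays of the same number, both used in the interaction, were not compared in this way. Nor were the cortical arrays with each other. Whole medulla replicates 6 and 7 did deviate with thymocyte replicates 4 and 5 (r of 0.16 to 0.28), all without the wide upper tail. With thymocyte replicates 1 to 3, which had that tail, their r was -0.15 to -0.09, and the cause was not tested. Promoter windows are those of RefSeq. The number of arrays limits the precision. Alternatives to the offset, scaling, filter, probe set rule, array set and block were run.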

Additional observations from a re-analysis of the deposited data

Results flagged for a closer look

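In 34 of 312 tests of a named gene within a group, 1 array lay farther from the others than Dixon's 95% value allows, and chance gives about 1 in 20. In whole medulla these were Fscn1 at 35800 (the others 17600 to 23200), Cd28 at 9790 (5620 to 6850), Icosl at 496 (888 to 1110), Cfb at 347 (444 to 530), Arc at 39.1 (123 to 235) and Eif2s3y at 1910 (2410 to 2650), all 6 on replicate 1. Further ones in whole medulla were Krt14 at 2200 on replicate 3, Jup at 232 on replicate 4, Prss16 at 591 and Adipoq at 95.4 on replicate 5, and Xist at 29.2 on replicate 6.

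Among the thymocyte arrays, replicate 1 stood apart for Csn2 (32.7), Cxcl9 (8.07), Vwf (36.7), C1ra (28.9), Rag1 (127, the others 855 to 1600) and Klrd1 (864, the others 1620 to 1800). Replicate 2 stood apart for Cd28 (20600), C1qa (8.85), Ms4a1 (94.8), Sdc1 (1.07), Alas2 (63.2) and Ptgs2 (11.6). Replicate 3 stood apart for Flt3 (99.2), Irf8 (117), Pdgfa (46.8), Klf2 (4830) and Oasl2 (851), replicate 4 for Reg3g (3.48) and Tyrobp (15.4), and replicate 5 for Spib (7.14), Ccl17 (42.4), Slco5a1 (48.3) and Xist (24.5). Many of these are signals below the array medians.

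The excess of tissue over thymocytes differed between medulla and cortex, by the interaction term in log2 units, for Reg3g (7.32), Wfdc18 (6.73), Csn2 (6.41), Ptgs2 (6.20), Serpinb1a (6.01), Cdhr1 (5.94), Fscn1 (5.19), Aire (4.92), Rgs5 (4.64), Fam167a (3.63), Arc (2.43), H2-Aa (2.30), Il7 (1.39) and Ctsl (1.39), which were greater in medulla. It was smaller in medulla for Prss16 (-5.45), Psmb11 (-4.35), Inmt (-3.82), Cxcl12 (-3.61), Plekhb1 (-3.55), Ccl25 (-3.07), Gzma (-2.89) and Cpa3 (-2.73).

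Among the 4478 tested probe sets with no gene symbol, which entered no comparison above, 361 (8.06%) were called higher in whole medulla than in thymocytes and 300 (6.70%) lower. The lower calls numbered 372 among arrays with the wide upper tail and 155 among arrays without it.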

How the results depend on the processing

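The count of genes higher in whole medulla was 2622 and of genes lower 166. Centring on the pan T cell list gave 6686 and 4 (99.9% higher, against 94.0%), quantile normalization gave 328 lower, the stricter filter gave 1233 higher, each probe set as a feature gave 4221 and 1127, and the replicate block gave 271 lower. For cortex (1298 higher, 205 lower), the stricter filter gave 768 higher, and the lower count was 82 after centring, 373 with the replicate block, 44 among arrays without the wide upper tail and 50 with the tail as a term. For the interaction (1723 positive, 299 negative), centring gave 4566 and 54 (98.8% positive, against 85.2%) and the stricter filter 882 positive. Fewer genes were tested under the stricter filter (9046) and more features with each probe set (30045). For the other changes the cause was not tested. Leaving out 1 array gave 2595 to 2659 higher and 146 to 203 lower for medulla, 1270 to 1370 and 158 to 300 for cortex, and 1673 to 1778 positive and 262 to 351 negative for the interaction. Neither the cortical comparison nor the interaction could be fitted among wide-tail arrays alone.

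Of 4707 recomputed values of named genes 1 called value changed sign, the interaction of Ctsl (-0.64 with its plain-suffix probe set, adjusted p = 0.269), 66 lost a call and 19 gained one. Of 156 named differences, centring ended 16 calls and gave 8 new ones. Ended were those of Meak7, H2-T24, Wdr46, Als2cl, Cd27, Cd28, Cd226, Ccr4, Ccr9, Cd3e, Cd6, S1pr1, Emb, Cd8b1, Cd4 and Izumo1r. New were those of Acta1, Jup, H2-K1, B2m, Rag1, Mki67, Ifit1 and Fos. The replicate block ended the calls of Il2ra (0.95), Izumo1r (-0.93) and Arc (0.87) and gave one for Thy1 (-1.01). Quantile normalization ended the calls of Siglech (0.63, adjusted p = 0.0838), Arc (0.64, adjusted p = 0.089), Inmt (0.64), Cd28 (-0.94), Emb (-0.97), Il2ra (0.90) and Izumo1r (-0.99), and the upper tail as a term those of Siglech (0.995) and S1pr1 (-0.99). Plain-suffix probe sets ended the calls of Ttn (0.24) and Ccr9 (-0.90), and the mean of a gene's probe sets those of Emb (-0.73) and Il2ra (0.69). Among arrays without the wide upper tail the calls of Meak7 (-0.75), Wdr46 (-0.61), Cd27 (-0.82), Cd28 (-0.97), Cd226 (-0.97), Cd3e (-0.78), S1pr1 (-0.93), Cd4 (-0.39) and Izumo1r (-0.90) were lost, and among wide-tail arrays those of Siglech (0.87), Inmt (0.90) and Arc (0.80). Calls close to the required size were lost without single arrays. Siglech was lost without thymocyte replicates 1, 2 or 5 or whole medulla replicates 3 or 4 (0.893 to 0.997), S1pr1 without thymocyte replicates 4 or 5 or whole medulla replicates 1, 3 or 5 (-0.99 to -0.96), and Arc without thymocyte replicate 2 or whole medulla replicates 6 or 7 (0.85 to 0.99). Inmt was lost without thymocyte replicates 4 or 5 or whole medulla replicate 2 (0.97 to 0.98), Izumo1r without thymocyte replicate 2 or whole medulla replicate 5 (-0.999 to -0.991), Cd28 (-0.997) and Cd226 (-0.99) without thymocyte replicate 2, and Il2ra (0.999) without thymocyte replicate 1, while Jup was called without thymocyte replicate 4 (1.06) or whole medulla replicate 4 (1.04).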

Other observations

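The 17 macrophage genes did not move as a block between the compartments. The 5 with a smaller excess in medulla, named after their values were seen, were Slc40a1, the iron exporter ferroportin (interaction -2.96 ± 0.21), Cd163, the haemoglobin scavenger receptor (-2.29 ± 0.43), Mrc1, the mannose receptor (-1.12 ± 0.29), Spic, a factor of red pulp macrophages (-1.05 ± 0.33), and Timd4, a receptor for dying cells (-1.01 ± 0.37). Slc40a1 averaged 286 ± 36.2 in whole medulla and 30.4 ± 9.32 in medullary thymocytes (SD, n = 7 and 5), and 1580 ± 340 in whole cortex and 11.5 ± 11.5 in cortical thymocytes (n = 7 and 5). Mrc1 averaged 481 ± 110 in whole medulla and 45.3 ± 28.4 in medullary thymocytes, and 1060 ± 154 in whole cortex and 39.9 ± 10.96 in cortical thymocytes. C1qb, a chain of C1q, was on the other side with an interaction of 1.58 ± 0.25.

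Lower calls were rarer among the brightest probe set of each gene than among the other probe sets. In a fit with each probe set as a feature, 166 of 13463 brightest probe sets were lower in whole medulla than in thymocytes (1.23%), 648 of 11420 other probe sets of the same genes (5.67%) and 300 of 4478 without a symbol (6.70%). The shares called higher were 19.5%, 10.1% and 8.06%. Of the other probe sets, 610, from 545 genes, were lower although the brightest probe set of their gene was not. The median of mean signals was 527, 262 and 169 in these classes. Among arrays with the wide upper tail 593 of the other probe sets were lower, and among arrays without it 690. The lower calls without a symbol numbered 372 with the tail and 155 without it.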
